A study of Mus musculus with 30 samples.

Results

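Autophagy encloses part of the cytoplasm in a membrane, the autophagosome, and delivers it to the lysosome for breakdown, and mitophagy is the form that removes mitochondria. The ULK1 kinase starts the process, Beclin 1 (BECN1) belongs to the lipid kinase complex that prepares the growing membrane, and ATG5 is part of the machinery that attaches ATG8 proteins to it. The ATG8 proteins (the LC3 and GABARAP families) hold cargo receptors such as p62 (SQSTM1), BNIP3 and BNIP3L, and TFEB is a transcription factor of autophagy and lysosome genes. In skeletal muscle, autophagy is known to clear damaged organelles and to rise in fasting and denervation. Here, 10 genes of the pathway were followed in the fast extensor digitorum longus (EDL) muscle: MAP1LC3A, MAP1LC3B, GABARAPL1, SQSTM1, BNIP3, BNIP3L, ULK1, TFEB, BECN1 and ATG5. They were found by their symbols among the 21073 genes of the deposited table, and each of the 10 symbols matched 1 gene.

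The table covers 30 samples of EDL muscle from female WT SJL/J mice, 5 in each of 6 groups, and no sample carries an engineered allele. Unimmunized mice (Ctrl) received no antigen, OVA mice received ovalbumin in complete Freund's adjuvant (CFA), and EAE mice received the myelin peptide PLP139-151 in CFA, which induces experimental autoimmune encephalomyelitis, a relapsing paralytic model of multiple sclerosis. Muscles were taken on day 14, at the peak of disease, and on day 40, in remission, from different mice. OVA mice share the adjuvant with EAE mice but not the myelin antigen, and EAE mice on day 14 can be paralysed, so that inflammation and disuse of the limb cannot be told apart in them. RPKM (reads on the exons of a gene scaled by exon length and by library size) were converted back from the deposited log2 values. Differences are log2 fold changes of RPKM + 0.1 from limma, and a gene was called where the adjusted p was below 0.05 and the fold above 1.5. P-values weigh a difference against the spread between mice of the same group, pooled over the groups of a model.

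The step of a single read gave 18.2M to 31.7M mapped reads per library, with a median of 21.7M, so that counting error is small for all 10 genes. The 11 fast fibre markers were above 3 RPKM in every group and far above the 8 slow fibre markers in summed level, which matches the EDL label. On day 14 the mouse numbered 1 in each group correlated least with its group, with a mean r of 0.9569 (Ctrl), 0.9643 (OVA) and 0.9719 (EAE), against 0.972 to 0.9828 for the other day 14 mice. Some of the results that rest on these mice are also given without them.

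In unimmunized mice on day 14, SQSTM1 had the highest level of the 10 genes, with 279 ± 26.2 RPKM (SD, n = 5), followed by MAP1LC3A with 195 ± 48.6 and MAP1LC3B with 106 ± 6.2. BNIP3 (72.7 ± 8.23), TFEB (44.4 ± 7.8) and BECN1 (30.5 ± 4.06) were lower, and GABARAPL1 (18.3 ± 5.54), BNIP3L (15.0 ± 1.2), ULK1 (13.6 ± 2.62) and ATG5 (7.41 ± 1.09) lower still. Neighbours in this order were separate in all 5 mice apart from SQSTM1 and MAP1LC3A, GABARAPL1 and BNIP3L, and BNIP3L and ULK1, whose ranges overlapped. Thus the transcripts of an ATG8 protein and of the main cargo receptor were among the most abundant of the muscle, with SQSTM1 at rank 188 and MAP1LC3A at rank 279 of 16774 genes with reads, and the enzymes of initiation and conjugation were at lower levels. All 10 genes passed the filter of 3 RPKM in every comparison. In EAE mice on day 14 the order changed at the top, where MAP1LC3A (776 ± 246) stood above SQSTM1 (433 ± 75.7) and BNIP3 (118 ± 22.5) above MAP1LC3B (114 ± 15.1), with overlapping ranges in each pair. On day 40 SQSTM1 was first again in EAE mice, with 273 ± 23.4 against 156 ± 23.6 for MAP1LC3A, and these ranges did not overlap.

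**Figure D1:**
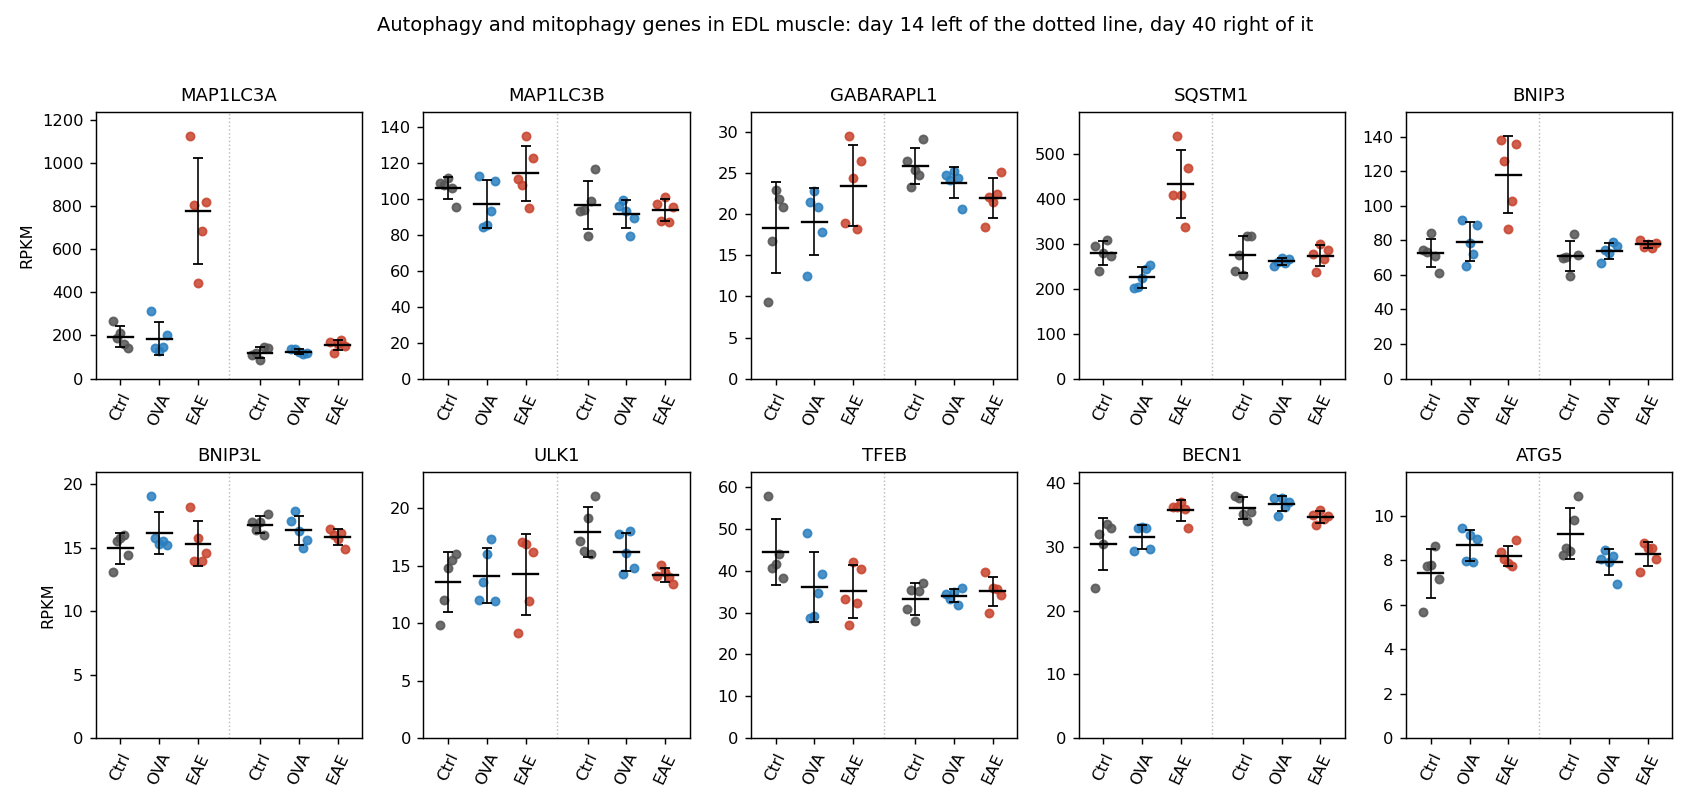
RPKM of the 10 genes in each mouse (points), with the mean and SD of the 5 mice of a group (black), for unimmunized (grey), OVA (blue) and EAE mice (red) on day 14 and day 40. MAP1LC3A, SQSTM1 and BNIP3 are higher in the EAE group of day 14 than in the Ctrl group of that day, with no overlap (as for 21.2% of all genes). The day 40 groups of these genes overlap. ULK1 is lower in the EAE than in the Ctrl group of day 40, with no overlap (4.51% of all genes).

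Among the 10 genes, 3 were called higher in EAE than in Ctrl mice on day 14 and 0 were called lower: MAP1LC3A, SQSTM1 and BNIP3. Of the 8771 genes tested in this comparison, 14.6% were called higher and 11.8% lower. With median-of-ratios scaling the numbers over all genes were 953 higher and 1258 lower in place of 1282 and 1036, so that 43.1% of the calls were higher in place of 55.3%, and the median log2 fold change of all genes was 0.02 in place of 0.11. The Ctrl and EAE groups of all 3 called genes did not overlap, which held with EAE higher for 21.2% of all genes tested. Against OVA mice, MAP1LC3A and SQSTM1 were called higher and 0 of the 10 lower, where 11% of 8674 genes were called higher and 9.28% lower (41.7% of the calls higher with median-of-ratios scaling, in place of 54.3%). Both comparisons share the EAE mice and are given side by side.

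MAP1LC3A (chr2:155276364-155278073, GRCm38.p6), which encodes an LC3 protein that is bound to the autophagosome membrane, moved most. In Ctrl mice on day 14 it had 268, 189.8, 211, 160.4 and 144 RPKM, in OVA mice 314, 139.8, 126, 146 and 202, and in EAE mice 1124, 807, 444, 685 and 821. The lowest EAE mouse thus stood above the highest Ctrl and OVA mice, and the EAE mice themselves spread over a wide range. The lowest value came from the most deeply sequenced library, with 31.7M reads. MAP1LC3A was 3.90-fold higher in EAE than in Ctrl mice, a log2 fold change of 1.97 ± 0.26 (SE, adjusted p = 3.82e-05), and 4.25-fold higher than in OVA mice, 2.09 ± 0.26 (adjusted p = 2.57e-05). Both calls held with each single mouse of the compared groups left out.

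SQSTM1 (chr11:50200152-50210820), which encodes p62, the receptor that links ubiquitinated cargo to LC3 and is itself degraded by autophagy, rose by a smaller fold. Its day 14 levels were 295, 239, 280.3, 308 and 274 RPKM in Ctrl mice, 202, 205, 223, 245 and 252 in OVA mice and 409, 539.8, 408, 338 and 469 in EAE mice. All 5 EAE mice were above all 10 controls, and OVA mice lay mostly below Ctrl mice. The difference was 1.54-fold, 0.62 ± 0.13 (SE, adjusted p = 9.96e-04), against Ctrl and 1.90-fold, 0.93 ± 0.13 (adjusted p = 4.35e-05), against OVA mice. The call against Ctrl lies close to the fold threshold and was lost without Ctrl mouse 2 (0.56, adjusted p = 0.00373), without EAE mouse 2 (0.54, adjusted p = 0.00326) and with median-of-ratios scaling (0.53, adjusted p = 0.0023).

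BNIP3 (chr7:138890836-138909506), which encodes a receptor in the outer mitochondrial membrane that ties mitochondria to LC3, had 74.6, 73.2, 84.0, 70.7 and 61.1 RPKM in Ctrl mice, 92.0, 65.3, 78.7, 72.0 and 88.7 in OVA mice and 138, 126, 86.6, 103 and 136 in EAE mice. The EAE group was separate from the Ctrl group, and its lowest mouse, again the most deeply sequenced library, lay below 2 OVA mice. BNIP3 was 1.60-fold higher in EAE than in Ctrl mice, 0.68 ± 0.14 (SE, adjusted p = 1.22e-03). Against OVA mice the difference was 0.56 ± 0.14 (adjusted p = 5.81e-03), under the fold threshold, and it passed that threshold without OVA mouse 1 or 5 or EAE mouse 3 or 4. For MAP1LC3A and SQSTM1 the EAE and OVA groups did not overlap, as held with EAE higher for 18% of all genes tested.

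The other 7 genes were not called in either comparison. GABARAPL1 (chr6:129533192-129542331), an ATG8 protein of the GABARAP family, had 9.33, 16.8, 22.9, 21.8 and 20.9 RPKM in Ctrl mice and 18.9, 29.5, 24.4, 18.2 and 26.5 in EAE mice, a difference of 0.40 ± 0.23 (adjusted p = 0.162). Its lowest Ctrl value came from mouse 1, and the difference was 0.17 without that mouse and 0.25 without the 3 mice numbered 1 of day 14. BECN1 (chr11:101288258-101302286) differed by 0.24 ± 0.10 (adjusted p = 0.0579) and TFEB (chr17:47737037-47792416) by -0.35 ± 0.16 (adjusted p = 0.0914), which is the only negative value of the 10 against Ctrl, although with median-of-ratios scaling BNIP3L and ULK1 were at -0.06 and -0.04 as well. Without Ctrl mouse 1, which had the lowest BECN1 (23.5 RPKM) and highest TFEB (57.9 RPKM) of its group, the differences were 0.15 and -0.25. For MAP1LC3B (chr8:121590438-121598760), the LC3 protein most used as a marker of autophagosomes, the difference from Ctrl was 0.10 with a 95% interval of -0.14 to 0.34. The interval was -0.18 to 0.24 for BNIP3L (chr14:66985238-67008877), a mitophagy receptor related to BNIP3, and -0.34 to 0.44 for ULK1 (chr5:110784489-110810120). ATG5 (chr10:44268322-44364299) differed by 0.16 ± 0.11. Therefore a change of 1.5-fold lay outside the intervals of MAP1LC3B, BNIP3L, ULK1, BECN1 and ATG5 against Ctrl mice, but inside those of GABARAPL1 and TFEB. RefSeq lists pseudogene copies under the name of MAP1LC3 and of BNIP3L, so that reads of MAP1LC3A, MAP1LC3B and BNIP3L may be shared with copies, which is a limit on their levels.

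**Figure D2:**
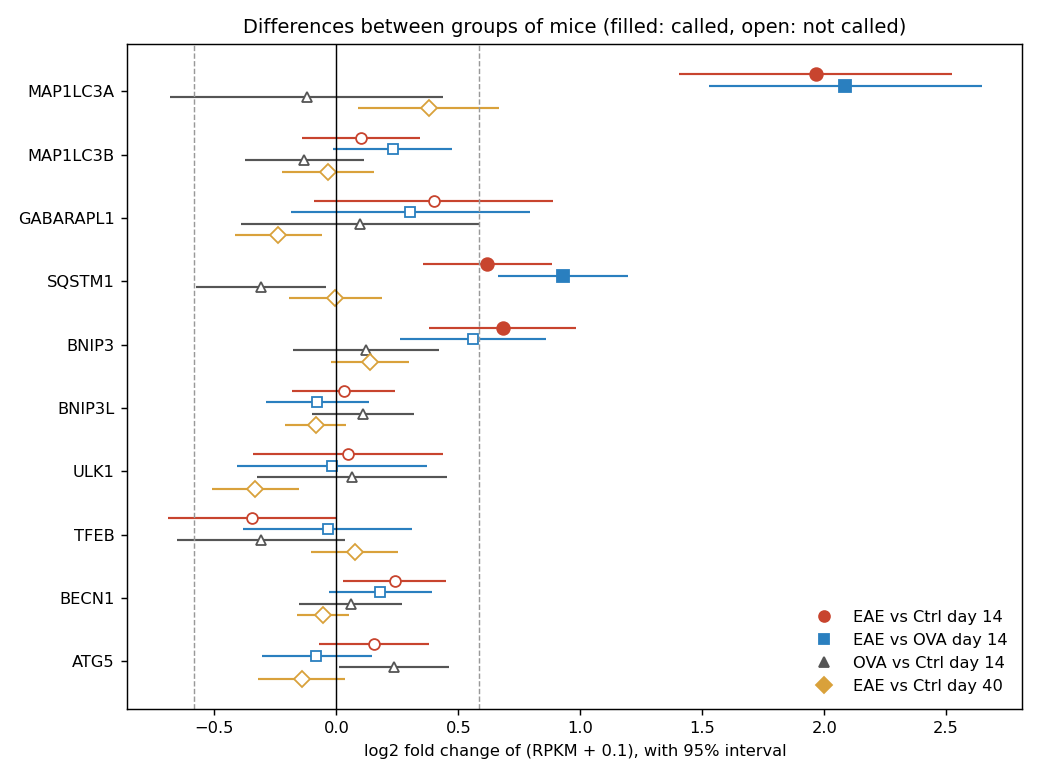
Log2 fold changes of the 10 genes with their 95% intervals (lines) for EAE mice against Ctrl and OVA mice and OVA against Ctrl mice on day 14 and EAE vs Ctrl mice on day 40. Filled symbols are called, dashed lines mark a fold of 1.5, and the filled symbols are MAP1LC3A and SQSTM1 in both EAE comparisons of day 14 and BNIP3 against Ctrl.

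Members of a family did not move by the same amount. The 5 ATG8 transcripts (MAP1LC3A, MAP1LC3B, GABARAP, GABARAPL1 and GABARAPL2) summed to 328 to 468 RPKM in Ctrl, 301 to 534 in OVA and 695 to 1381 in EAE mice on day 14, and to 245 to 364 over all day 40 mice. MAP1LC3A made up 43.1% to 57.4% of this sum in Ctrl mice, 41.9% to 58.8% in OVA mice and 63.9% to 81.3% in EAE mice on day 14, and 34.5% to 50.1% over all day 40 mice. The EAE mice of day 14 were separate from the other mice in both quantities, and most of the difference in the sum came from 1 gene, since the median was 807 RPKM in EAE against 189.8 in Ctrl mice for MAP1LC3A and 1040 against 393 for the sum. GABARAP was at 62.1 to 76.5 RPKM in EAE against 45.8 to 55.6 in Ctrl mice on day 14, and it was not called.

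**Figure D3:**
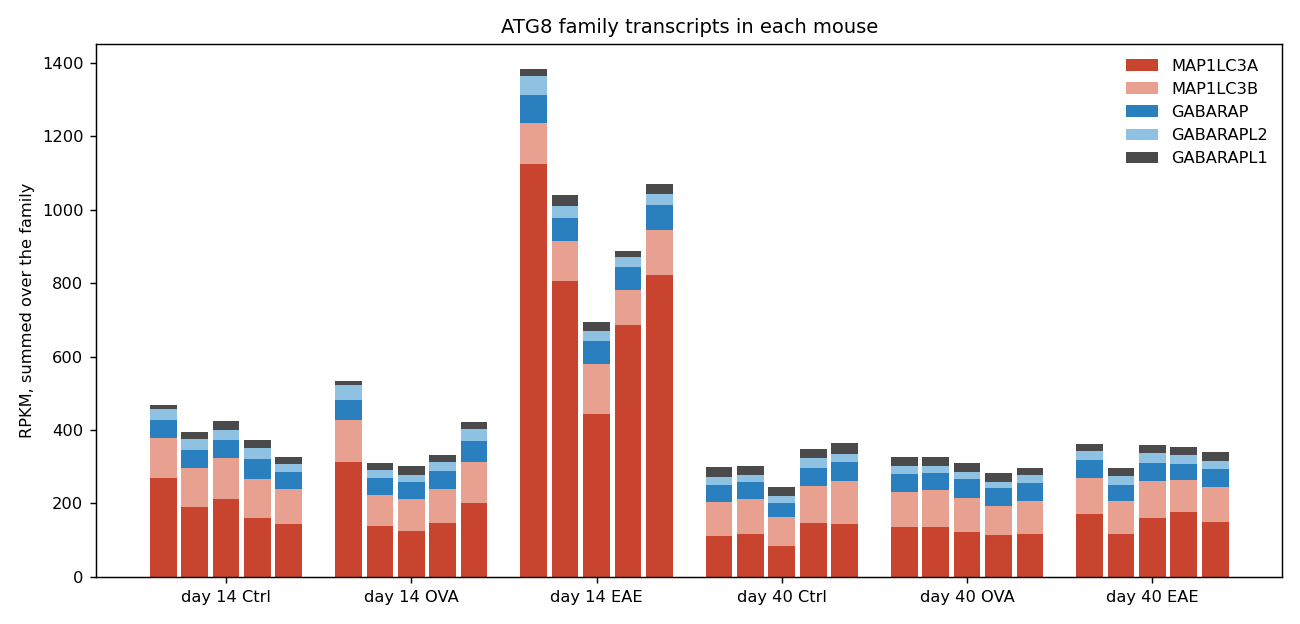
RPKM of the 5 ATG8 family genes, stacked, in each of the 30 mice, ordered by group. The red part (MAP1LC3A) reaches 444 to 1124 RPKM in the EAE mice of day 14 and at most 314 in any other mouse.

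The promoters of 7 of the 10 genes were matched in RefSeq (GRCm38.p6), as windows of 300 bases around the gene's start, and searched on both strands for the E-box CACGTG (the core of the element bound by TFEB), the FoxO core GTAAACA and the hypoxia core ACGTG, which the E-box contains. Of 32851 windows of this length over all genes, 7.15% held the E-box, 3.65% the FoxO core and 19.6% the hypoxia core. The E-box was found in BNIP3, at position -108 from the start, and in ATG5, at position -14, and no other of the 3 motifs was found in the windows of the 7 genes beyond the hypoxia core inside these E-boxes. The 250 bases before the start are shown for SQSTM1 (chr11:50210821-50211070, minus strand) and BNIP3 (chr7:138909507-138909756, minus strand), the called genes with a window, to set a promoter without the motifs beside one with the E-box, which is in capitals. A match describes the letters and is no binding site.
SQSTM1: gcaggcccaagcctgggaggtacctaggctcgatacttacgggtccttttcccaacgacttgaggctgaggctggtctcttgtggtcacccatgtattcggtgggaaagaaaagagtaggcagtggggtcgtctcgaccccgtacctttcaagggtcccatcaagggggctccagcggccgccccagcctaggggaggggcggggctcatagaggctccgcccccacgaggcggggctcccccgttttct
BNIP3: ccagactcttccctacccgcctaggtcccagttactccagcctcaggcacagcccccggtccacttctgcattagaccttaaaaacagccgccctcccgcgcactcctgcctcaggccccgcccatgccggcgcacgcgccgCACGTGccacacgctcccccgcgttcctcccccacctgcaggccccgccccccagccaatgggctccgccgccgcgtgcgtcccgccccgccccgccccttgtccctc

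OVA and Ctrl mice were compared to ask whether the adjuvant and a foreign antigen alone moved these genes. On day 14 limma called 0 of the 10 genes, where 0.0944% of 8471 genes were called higher and 0.0472% lower (821 genes had an unadjusted p below 0.05). The largest differences were -0.31 ± 0.13 for SQSTM1 (adjusted p = 0.431), -0.31 ± 0.16 for TFEB (adjusted p = 0.574) and 0.24 ± 0.11 for ATG5 (adjusted p = 0.48). MAP1LC3A differed by -0.12, with a 95% interval of -0.68 to 0.44. OVA mouse 1 had 314 RPKM and the others 126 to 202, and the difference was -0.33 without OVA mouse 1, 0.002 without Ctrl mouse 1 and -0.21 without the 3 mice numbered 1.

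On day 40 limma called 0 of the 10 genes between any of the groups. Of all genes tested, 0.069% were called higher and 0.391% lower in EAE than in Ctrl mice, 0.0349% and 0.174% in EAE than in OVA mice, and 0% and 0% in OVA than in Ctrl mice, with 2423, 1500 and 272 genes at an unadjusted p below 0.05. MAP1LC3A had 111, 118, 84.4, 148 and 143 RPKM in Ctrl, 136, 136, 122, 113 and 118 in OVA and 172, 118, 161, 177 and 150.1 in EAE mice. The EAE values overlapped with those of both controls, and the difference from Ctrl was 0.38 ± 0.14 (SE, adjusted p = 0.106). ULK1, the initiating kinase, had 17.2, 16.3, 19.2, 16.0 and 21.1 RPKM in Ctrl and 14.1, 15.1, 14.5, 14.0 and 13.4 in EAE mice. All EAE mice lay below all Ctrl mice, as held for 4.51% of all genes, and the difference of -0.33 ± 0.09 (adjusted p = 0.0472) was under the fold threshold. OVA mice had 14.3 to 18.0 RPKM of ULK1, which overlapped with EAE mice. By limma ULK1 differed by -0.18 between EAE and OVA mice (adjusted p = 0.279) and by -0.15 between OVA and Ctrl mice. SQSTM1 differed from Ctrl by -0.01 with a 95% interval of -0.20 to 0.19, BNIP3 by 0.14 (-0.02 to 0.30) and GABARAPL1 by -0.24 (-0.42 to -0.06, adjusted p = 0.0986). On this day BNIP3 was close in all 5 EAE mice, at 75.7 to 80.0 RPKM.

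The days were compared within each treatment, between different mice, so that the age of the mice and the day of collection cannot be told apart from the course of disease. In EAE mice MAP1LC3A fell by 2.27 (SE 0.22, adjusted p = 3.20e-09) and SQSTM1 fell by 0.65 (SE 0.11, adjusted p = 1.67e-05) from day 14 to day 40, 2 of 10 genes called lower and 0 higher, where 12.7% of 8709 genes were called lower and 8.36% higher (with median-of-ratios scaling 54.4% of the calls were higher in place of 39.7%, and the median log2 fold change of all genes was -0.001 in place of -0.11). With median-of-ratios scaling SQSTM1 differed by -0.55, and without EAE mouse 2 of day 14 by -0.56, both under the fold threshold. BNIP3 differed by -0.58 ± 0.11 (adjusted p = 1.31e-04), just under the fold threshold, which it passed without EAE mouse 3 or 4 of day 14 or EAE mouse 1 of day 40 (-0.59 to -0.69). The 2 day groups of all 3 genes did not overlap, as held with day 40 lower for 21.9% of all genes.

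In OVA mice 0 of the 10 genes were called between the days, where 2.25% of 8648 genes were called higher and 1.71% lower on day 40, with 2124 genes at an unadjusted p below 0.05. In Ctrl mice 1 was called lower on day 40 and 0 higher, where 4.35% of 8788 genes were called lower and 5.02% higher. This gene was MAP1LC3A, at -0.68 ± 0.22 (adjusted p = 0.0231), with overlapping groups, and the call was lost without Ctrl mouse 1 of day 14 (-0.56, adjusted p = 0.0962), without Ctrl mouse 3 of day 40 (-0.56, adjusted p = 0.0878) and without the 3 mice numbered 1 of day 14 (-0.56, adjusted p = 0.031). In the same mice GABARAPL1 (0.56, adjusted p = 0.024), ULK1 (0.41, adjusted p = 0.0355), ATG5 (0.31, adjusted p = 0.0168) and BECN1 (0.25, adjusted p = 0.0147) were higher on day 40 and TFEB was lower (-0.41, adjusted p = 0.0241), each by less than 1.5-fold. Of these, GABARAPL1, ULK1 and BECN1 did not overlap between the days, nor did BNIP3L, with day 40 higher (6.73% of all genes), and TFEB did not overlap with day 40 lower (5.2%). Without the 3 mice numbered 1 of day 14 the difference was 0.33 for GABARAPL1 and 0.16 for BECN1.

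A model of all 30 mice with an interaction term asked if the EAE effect itself changed with the day. From day 14 to day 40 the EAE minus Ctrl difference fell by 1.59 for MAP1LC3A (SE 0.31, adjusted p = 2.15e-04), fell by 0.63 for SQSTM1 (SE 0.15, adjusted p = 0.00167) and fell by 0.64 for GABARAPL1 (SE 0.26, adjusted p = 0.0405), 3 of 10 genes called lower and 0 higher, where 20.9% of 9013 genes were called lower and 11.7% higher (52.3% of the calls higher with quantile normalization, in place of 35.9%). SQSTM1 was under the fold threshold with median-of-ratios scaling (-0.52) and without Ctrl mouse 2 or EAE mouse 2 of day 14 or Ctrl mouse 4, Ctrl mouse 5 or EAE mouse 2 of day 40 (-0.54 to -0.58). GABARAPL1 held its call in 10 of 20 fits without 1 mouse and lost it without Ctrl mouse 1 or 2 or EAE mouse 2, 3 or 5 of day 14, or Ctrl mouse 1, 3 or 5 or EAE mouse 1 or 3 of day 40 (adjusted p = 0.0525 to 0.0953). Without the mice numbered 1 of day 14 it was -0.49. Between the days GABARAPL1 itself differed by -0.08 in EAE mice (adjusted p = 0.737) and by 0.56 in Ctrl mice. The EAE minus OVA difference fell by 1.78 for MAP1LC3A (SE 0.31, adjusted p = 7.66e-05) and fell by 0.87 for SQSTM1 (SE 0.15, adjusted p = 8.49e-05), 2 of 10 lower and 0 higher, where 13.7% of 8935 genes were called lower and 8.16% higher (55.0% of the calls higher with quantile normalization, in place of 37.4%). At an adjusted p below 0.05 without the fold threshold, 5 of the 10 genes were lower in the first of these tests, where 32.1% of all genes were, and 3 in the second, where 24% were. For OVA minus Ctrl, limma called 0 of the 10 genes and 0% of 8848 genes in either direction, with 823 genes at an unadjusted p below 0.05.

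The other genes of the pathway were taken from lists by role, which were chosen with earlier results of these data known. Their shares are thus a description. The lists held 95 such genes, of which 92 were tested in EAE vs Ctrl mice on day 14. Of these, 21 were called higher (22.8%, against 14.6% of all genes) and 1 lower (1.09%, against 11.8%), with a median log2 fold change of 0.28 against 0.11 over all genes. Without Ctrl mouse 1, 12 were called higher, so that the share of 22.8% depends on this mouse. Over all genes, 999 to 1434 were called higher with each mouse left out in turn, in place of 1282. FOXO3, ATG2B and WDFY3 are among the 21 although their mean in Ctrl mice was below 3 RPKM, so that they entered the test only through the EAE group, in which they are higher. Among the 85 genes above 3 RPKM in both groups 18 were called higher (21.2%), against 13% of all such genes. Against OVA mice 10 were called higher (10.9%), which is the share of all genes (11%), and 1 lower (1.09%, against 9.28%), and limma called 0 in OVA vs Ctrl mice on day 14 and in the comparisons of day 40. Of the 10 cargo receptors all had a positive difference from Ctrl and 6 were called higher, SQSTM1 and the low WDFY3 included, and 4 were called higher against OVA mice. RETREG1 (FAM134B), a receptor for the endoplasmic reticulum, had 28.6 to 60.0 RPKM in Ctrl and 96.4 to 258 in EAE mice (1.88 ± 0.25, adjusted p = 3.91e-05). STBD1, which binds glycogen, had 39.8 to 49.7 in Ctrl and 79.7 to 168 in EAE mice (1.54 ± 0.16, adjusted p = 5.02e-06), and TAX1BP1, a ubiquitin-binding receptor, differed by 0.77 ± 0.15 (adjusted p = 0.000694). The EAE mice lay above all Ctrl mice for 7 of the 10 receptors, SQSTM1, RETREG1, STBD1 and TAX1BP1 among them, as held for 21.2% of all genes, and above all OVA mice for 7 as well (18% of all genes).

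In the mitophagy list of 11 genes, BNIP3 and the receptor BCL2L13 (0.59 ± 0.15) were among the genes called higher. MUL1, a mitochondrial ubiquitin ligase chosen here after its value was seen, was called lower against OVA mice (-0.60 ± 0.09), with 10.1 to 13.3 RPKM in EAE and 15.3 to 18.3 in OVA mice. Among the upstream regulators 5 of 13 tested were called higher, against 14.6% of all genes. They were led by DDIT4, an inhibitor of mTORC1 induced by stress (1.67 ± 0.37), MTOR, the kinase that holds ULK1 inactive (1.49 ± 0.25), and TSC1, which restrains it (0.79 ± 0.21). Thus genes with opposite roles towards mTORC1 rose together. SESN1, also an inhibitor of mTORC1 and named here after its value was seen, was called lower (-0.66 ± 0.16). Of the transcription factors FOXO3 (1.62 ± 0.55) and FOXO1 (0.87 ± 0.21) were called higher, and TFEB was not. FOXO3, which passed the filter only through the EAE group, was low, at 0.295 to 2.92 RPKM in Ctrl and 2.75 to 7.31 in EAE mice.

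In the other roles the genes called higher were ATP6V1A (0.88 ± 0.14), CD63 (0.64 ± 0.17) and ATP6AP2 (0.62 ± 0.15) among 13 genes of the lysosome membrane and its proton pump, SNAP29 of the fusion machinery (0.68 ± 0.12) among 12, ATG13 of the ULK complex (0.88 ± 0.31) among 5, RUBCN, an inhibitor of the Beclin 1 complex (0.60 ± 0.15), among 7 and ATG2B, a lipid transfer protein (0.59 ± 0.20), among 9. ATG2B had a mean of 2.5 RPKM in Ctrl and 3.79 in EAE mice and passed the filter only through the latter. The values of RUBCN, ATG2B, ATP6AP2 and BCL2L13 lie close to the fold threshold. With median-of-ratios scaling 14 of the other pathway genes were called higher in place of 21. Of the 10 genes of the conjugation machinery, ATG5 included, limma called 0. Over all genes tested in EAE vs Ctrl mice on day 14, 14.6% were called higher and 11.8% lower. The counts of these lists are given as a description. From day 14 to day 40 in EAE mice 11 of the other 93 genes were called lower (11.8%) and 1 higher (1.08%), against 12.7% and 8.36% of all genes. In Ctrl mice 4 were called higher (4.3%), against 5.02% of all genes, with 0 without Ctrl mouse 1 of day 14, 1 without Ctrl mouse 3 of day 40, 8 without Ctrl mouse 4 or 5 of day 14 and 7 without Ctrl mouse 4 of day 40. The 11 and the 4 thus lie near the share of all genes.

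**Figure D4:**
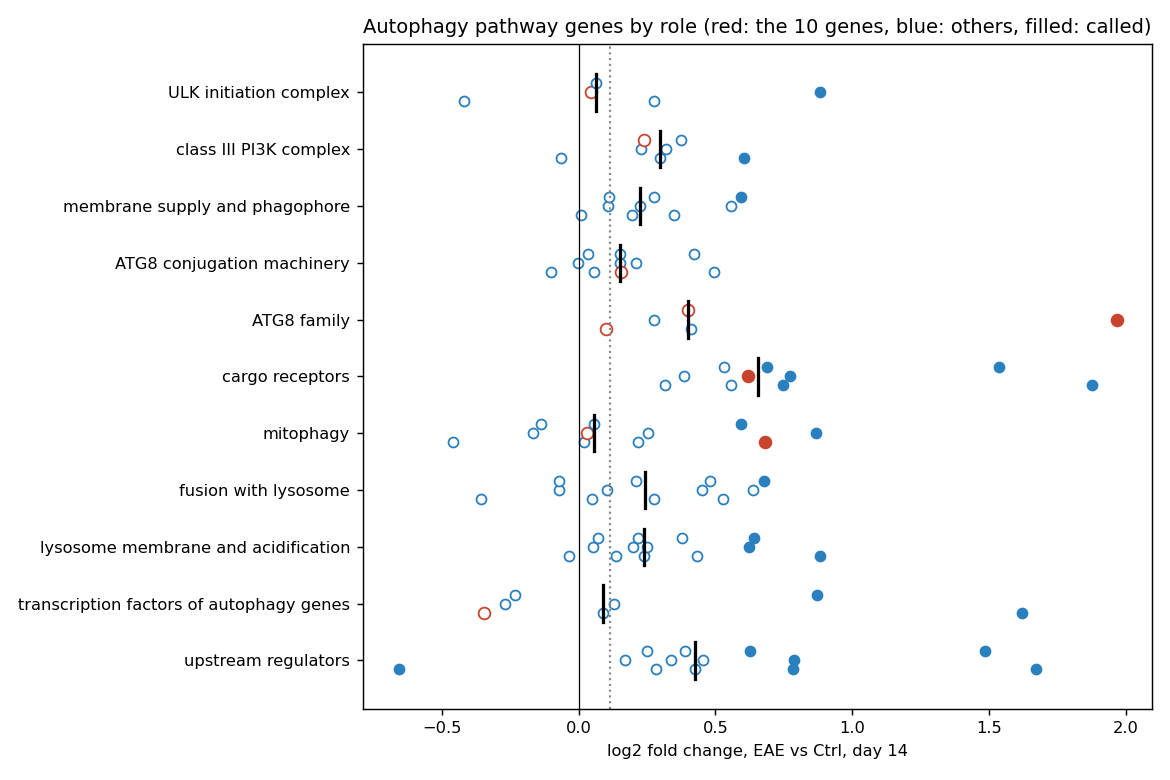
Log2 fold changes in EAE vs Ctrl mice on day 14 for the tested genes of 11 role lists, 1 point a gene (red for the 10 genes, blue for others, filled where called). Black bars are list medians and the dotted line is the median of all genes, 0.11. The cargo receptors lie to the right of 0 throughout, with a median of 0.65.

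Markers of other cells moved with the same group, and their part in these differences was not tested. In bulk muscle, fewer cells of a type and less RNA per cell cannot be told apart. On day 14 the 10 neutrophil markers summed to 3.85 to 10.8 RPKM in Ctrl, 68.6 to 237 in OVA and 218 to 404 in EAE mice, led by S100A8, with 0 of 10 markers above 3 RPKM in Ctrl and 5 in OVA and EAE mice. The 8 fibroblast markers, led by DCN, summed to 912 to 1452 RPKM in Ctrl, 694 to 944 in OVA and 324 to 513 in EAE mice. The 10 macrophage markers (LYZ2) summed to 284 to 426, 271 to 408 and 139.5 to 305 in the same order, and the 8 adipocyte markers (FABP4) to 635 to 911, 697 to 993 and 376 to 568. The 7 erythroid markers (HBA-A1) summed to 189 to 684, 475 to 1587 and 26.5 to 189, and the 8 endothelial markers (PECAM1) to 102 to 135, 87.0 to 157 and 78.1 to 115. The fast fibre markers (ACTA1) summed to 93277 to 123358 RPKM in Ctrl, 83805 to 111051 in OVA and 69847 to 83825 in EAE mice. The slow fibre markers (MYL2) summed to 1763 to 2935, 1811 to 2827 and 1039 to 1799 in the same order. The summed neutrophil markers were thus highest in the EAE group, and the fibroblast, adipocyte and fast fibre sums of EAE mice lay below those of all Ctrl mice. No marker of these lists was at 0 in all 5 mice of a day 14 group. On day 40 the neutrophil sum was 4.82 to 67.5 RPKM in Ctrl, 14.9 to 34.9 in OVA and 8.29 to 53.6 in EAE mice.

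The genes whose pattern was most like that of a member were found by Pearson's r of log2(RPKM + 0.1) over the 30 mice among 9039 genes. The EAE mice of day 14 stand apart in many of these genes, so that r is given as a description. MAP1LC3A was most like HN1 (0.975) and NOL3 (0.974), an inhibitor of cell death in muscle. SQSTM1 was most like FXR2 (0.933), an RNA-binding protein, and PSMD2 (0.925), a proteasome subunit, and BNIP3 was most like SKP1A (0.935), a subunit of SCF ubiquitin ligases, and HARS (0.933), a tRNA synthetase. GABARAPL1 was most like KCTD20 (0.924) and TPP1 (0.91), a lysosomal peptidase. For the other 6 genes the values were lower: WNT4 (0.819) and RAPSN (0.812) for MAP1LC3B, ALDOA (0.859) and SAMD1 (0.854) for TFEB, ZFP280D (0.874) and EHBP1 (0.873) for BECN1, CYB5R2 (0.848) and DOPEY2 (0.846) for ULK1, UBE2E3 (0.782) and ZFP120 (0.78) for BNIP3L, and CLPX (0.738) and TAF7 (0.724) for ATG5.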

How the data were processed

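Poly(A) RNA of EDL muscle was sequenced in paired-end reads with a directional kit. The authors used Subread for alignment to mm10 and featureCounts for the reads of each RefSeq gene, from which they made RPKM. The deposited table holds log2(RPKM + 1) for each gene and mouse, where 0.0001 stands for no read. The log2 scale shows in the low values: on it, 100% of 1218 low values of 225 genes were whole reads within 0.05 read, against 32.03% when the values were taken as RPKM. No column went unmapped. Values were converted back to RPKM and tested with limma 3.58.1 in R 4.3.3 (lmFit and eBayes with a trend) after addition of 0.1 RPKM and log2 transformation. A day's 15 mice shared 1 model, and all 30 entered the models of days and interactions. Tests covered genes whose mean passed 3 RPKM in 1 or more of the compared groups, with Benjamini-Hochberg adjustment over all of them. The tests were checked on simulated data. EdgeR, which the authors used, needs counts, which were not used here.

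The 10 genes, the role lists and the marker lists were chosen with earlier results of these data known. Named were the 10 genes, in each role list up to 3 other called genes with the largest change in EAE vs Ctrl on day 14, and for each of the 10 the 2 genes of highest r. A result of the mitophagy list is not reported here. Members of lists were matched by Entrez identifier. Replicate numbers were taken from the labels, which do not say whether mice of the same number were handled together, and the main models did not pair them.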

Additional observations from a re-analysis of the deposited data

Results flagged for a closer look

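Of the 60 sets of 5 mice (10 genes in 6 groups), 3 held a mouse that stood far from the others by Dixon's test, and chance flags about 1 in 20 such sets. GABARAPL1 was lowest in OVA mouse 5 of day 40, with 20.6 RPKM against 24.2 in the nearest mouse. BNIP3L was highest in OVA mouse 1 of day 14, with 19.1 against 15.8 RPKM. BECN1 was lowest in EAE mouse 5 of day 14, with 32.9 against 36.0 RPKM.

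The effect of EAE differed between the days, by the interaction test of limma, for 5 of the 10 genes against Ctrl mice and for 3 against OVA mice at an adjusted p below 0.05, where 8 of 30 tests passed. All 8 values are negative, and at this threshold 32.1% of all genes had a negative difference against Ctrl and 24% against OVA mice. Against Ctrl the values on the log2 scale, day 40 minus day 14, were -1.59 for MAP1LC3A, -0.64 for GABARAPL1, -0.63 for SQSTM1, -0.54 for BNIP3 (adjusted p = 0.00694) and -0.29 for BECN1 (adjusted p = 0.0212). Against OVA mice they were -1.78 for MAP1LC3A, -0.87 for SQSTM1 and -0.49 for BNIP3 (adjusted p = 0.0199). The BNIP3 and BECN1 values are under the fold threshold, and BECN1 differed by -0.20 with quantile normalization (adjusted p = 0.157). In EAE mice, GABARAPL1 and BECN1 differed between the days by -0.08 and -0.04 (limma, adjusted p = 0.737 and 0.659). In Ctrl mice they differed by 0.56 and 0.25, so that both interactions lie mostly in the Ctrl mice.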

How the results depend on the processing

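The calls of MAP1LC3A in EAE mice against Ctrl and OVA mice on day 14 and against EAE mice of day 40 held under every alternative, and no called member changed sign. With median-of-ratios scaling 1 member in place of 2 was called lower in EAE mice from day 14 to day 40, and 1 in place of 3 in the EAE minus Ctrl interaction. Without the fold threshold the members called lower were 1 in place of 0 in EAE vs Ctrl on day 40, 4 in place of 2 in EAE mice between the days, 2 in place of 1 in Ctrl mice between the days (with 4 in place of 0 higher) and 5 in place of 3 in the EAE minus Ctrl interaction. In Ctrl mice between the days, 0 members were called lower in place of 1 with quantile normalization and without the 3 mice numbered 1 of day 14, an alternative chosen after the data were seen. The cause was not tested. With each mouse left out in turn, members called lower were 1 to 3 in EAE mice between the days, 0 to 1 in Ctrl mice between the days and 1 to 4 in the EAE minus Ctrl interaction. In the same fits 0 to 1 were called higher in Ctrl mice between the days, namely GABARAPL1 without Ctrl mouse 3, 4 or 5 of day 14 or Ctrl mouse 2 of day 40.

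A fit with a replicate block called 3 members higher in EAE vs Ctrl and 2 in EAE vs OVA mice on day 14, the counts of the fit without it. Deviations of same-numbered mice correlated from -0.728 to 0.438 for numbers 2 to 5 of day 14 and from -0.555 to 0.168 on day 40. The mice numbered 1 of day 14 did deviate alike, with 0.509 to 0.699. The labels do not say whether mice of the same number were handled together, and these correlations cannot decide it.

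Counts over other genes moved by more than 1.5 times. Over the alternatives the 21 other pathway genes called higher in EAE vs Ctrl on day 14 were 14 to 36, the 10 against OVA 9 to 31, the 11 called lower in EAE mice between the days 9 to 37, the 4 called higher in Ctrl mice between the days 0 to 19, and the 26 and 16 lower in the EAE minus Ctrl and EAE minus OVA interactions 18 to 46 and 6 to 31. With each mouse left out in turn these 6 counts were 12 to 23, 9 to 13, 10 to 16, 0 to 8, 19 to 31 and 10 to 19, with the 10 of the last without EAE mouse 2 of day 14. The 26 and 16 of the interactions are 28% and 17.2% of 93 genes tested, against 20.9% and 13.7% of all genes. All genes called higher and lower on day 14 were 953 to 2530 and 890 to 1968 in EAE vs Ctrl, 714 to 2064 and 702 to 1326 in EAE vs OVA, and 6 to 23 and 0 to 28 in OVA vs Ctrl. On day 40 they were 0 to 25 and 0 to 204 in EAE vs Ctrl and 0 to 5 and 0 to 50 in EAE vs OVA. Between the days they were 586 to 1643 and 810 to 2724 in EAE, 146 to 661 and 89 to 294 in OVA, and 126 to 1657 and 221 to 1109 in Ctrl mice.

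All 10 genes lie well above the level of single reads at these depths, and the spread between 5 mice limits the precision. RPKM are shares of a library, so that a change of abundant transcripts moves the others.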
